A study of Mus musculus with 2 samples.

Results

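The vessel-rich spots of 2 sections of mouse melanoma were described, 455 of 5812 spots in all. Spots with at least 5000 UMIs (counted RNA molecules) entered the choice. The 10% of these spots with the highest summed level of Col1a1, Col1a2 and Col3a1 were left out in each section. The members are the 10% of the remaining spots with the highest summed level of 4 endothelial genes, Pecam1, Cdh5, Kdr and Plvap. This gave 240 of 2404 remaining spots in WT and 215 of 2151 in KO tissue, and the other remaining spots of the same section, 2164 and 1936, were the comparison.

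The series used Visium CytAssist on formalin-fixed, paraffin-embedded tissue, in which pairs of probes report the RNA of each gene on a grid of barcoded spots. B16.F10 cells, a mouse melanoma line, grew in untreated mice of 8 to 16 weeks until day 15, and sections of 10 µm were cut from tumours that the submitters describe as similar in size. The WT host is labelled wild-type in its genotype field and Csnk2b fl/fl in its title and protocol, the floxed allele of the regulatory subunit of protein kinase CK2 without the recombinase. The KO host was Foxp3-Cre × CK2b-fl/fl, in which the Foxp3 promoter limits the recombinase to cells that express Foxp3, mainly regulatory T cells. The inoculated B16.F10 line was the same in both, so vessels and immune cells come from the host, and by the title and protocol the floxed allele is present in both groups. Each genotype is 1 section of 1 tumour. A difference between the sections therefore has no replicate check, the genotype, the animal and the section cannot be told apart, and no p-value was computed. A spot is a small region with several cells, so a lower level can mean fewer cells of a type or less RNA per cell, and these cannot be told apart. The 2138 barcodes found in both sections are positions of the same printed grid, not shared cells.

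Blood vessels are lined by endothelial cells, which are wrapped by pericytes or smooth muscle and rest on a basement membrane of collagen IV, laminin and perlecan. Growing tumours recruit vessels through VEGF, which binds Flt1 and Kdr on endothelial cells, and through Notch, angiopoietin and apelin signals in sprouting tip cells. Cells far from a perfused vessel run short of oxygen, and the HIF transcription factors then induce genes such as Vegfa, Car9 and Bnip3. Leukocytes enter a tissue through its vessels, and MHC class II presents antigen to CD4+ T cells.

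The 4 choosing genes are given as a description, since they made the split. Plvap, a protein of endothelial diaphragms (chr8:71497753-71511806, GRCm38.p6, as are the other gene positions), gave 53.2% of the UMIs of the choosing genes in WT members and 41.4% in KO members. Cdh5, the endothelial cadherin (chr8:104101613-104144504), gave 25.7% and 35.2%, the adhesion molecule Pecam1 12.5% and 13.1%, and the VEGF receptor Kdr 8.53% and 10.3%. The summed level had a median of 1259 CPM (each gene's UMIs scaled to the same total) per WT member and 506 CPM per KO member, against 79.7 and 65.5 CPM in other spots. The sum rested on few molecules, with 5 to 151 UMIs per WT member (median 32) and 3 to 66 per KO member (median 21). All 4 genes were seen in 192 of 240 WT members and 166 of 215 KO members. The level ran smoothly across the threshold. In the WT section the lowest member had 635 CPM and the highest other spot 634 CPM, and the fifth spot on each side had 641 and 624 CPM. The KO values were 362.2 and 361.8 CPM, and 367 and 361 CPM. The thresholds differ between sections: 58 of 2151 KO spots (2.70%) reached the WT threshold, and 428 of 2404 WT spots (17.8%) reached the KO threshold.

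When members were chosen on a random part of each spot's UMIs and measured on the rest, 220 of 240 WT members and 173 of 215 KO members were chosen again. The UMIs not used for choosing gave ratios of members over other spots of 11.5 for Plvap, 8.02 for Cdh5, 8.13 for Pecam1 and 7.16 for Kdr in the WT section. The KO ratios were 4.75, 4.47, 4.55 and 3.50. With every spot thinned to 5000 UMIs before the choice, 194 of 240 WT members and 117 of 215 KO members were chosen again, so membership of a given KO spot was the less stable of the pair.

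The label "inside melanoma tissue" held for most KO members and for a smaller portion of WT members. The summed level of melanocytic genes, which mark the tumour cells, had a median of 23013 CPM in WT members (382 lowest, 73350 highest) against 53736 CPM in other spots. In KO members it was 52929 CPM (3006 lowest, 99023 highest) against 59877 CPM. The lower quartile of WT members was 3301 CPM, so many of them held little tumour RNA. Only 29 of 240 WT members and 71 of 215 KO members reached their section's median melanocytic share. Collagen also remained after the collagen-rich spots were taken out: the 3 collagen genes summed to a median of 25998 CPM in WT members against 395 CPM in other spots, and to 749 against 87.8 CPM in the KO section. The WT members are therefore vessel-rich spots of tumour and stroma, and values of gene lists in melanocytic-rich spots alone are given below over the genes tested in the full comparison, a choice made after seeing the data, since fewer genes reach 500 UMIs there.

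WT members were shallower than their neighbours, with a median of 23038 UMIs (5038 to 69633) against 33494 in other spots. KO members had 42666 UMIs (6303 to 111626) against 42296. In all, 6208418 UMIs were read in WT members and 9161544 in KO members. A count-based interval is therefore narrow for abundant genes, and it covers counting error only.

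Vessel-rich spots lay in clumps. Of the WT members 215 of 240 (89.6%) touched another member, and the largest patch held 84 spots. The KO members were more scattered: 161 of 215 (74.9%) touched another, 54 lay alone, and the largest of 93 patches held 21 spots. Of the 1237 pairs of a WT member and a touching remaining spot, 704 (56.9%) joined it to another member, each such pair counted from both sides, and of 1115 KO pairs 326 (29.2%) did. Members are 10.0% of the remaining spots overall. Distance to the edge was counted to the nearest position without tissue or outside the capture grid. Spots where the grid crops the tissue therefore count as near the edge. Members within 2 steps of this edge made up 48.3% in the WT section, against 42.1% of other spots, and 41.4% against 22.0% in the KO section. Interior spots lie more than 2 steps from it. The 4 quadrants of the WT section held 107, 5, 89 and 39 members and those of the KO section 54, 40, 16 and 105. Quadrants with at least 20 members are used below to show the spread inside a section.

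**Figure D1:**
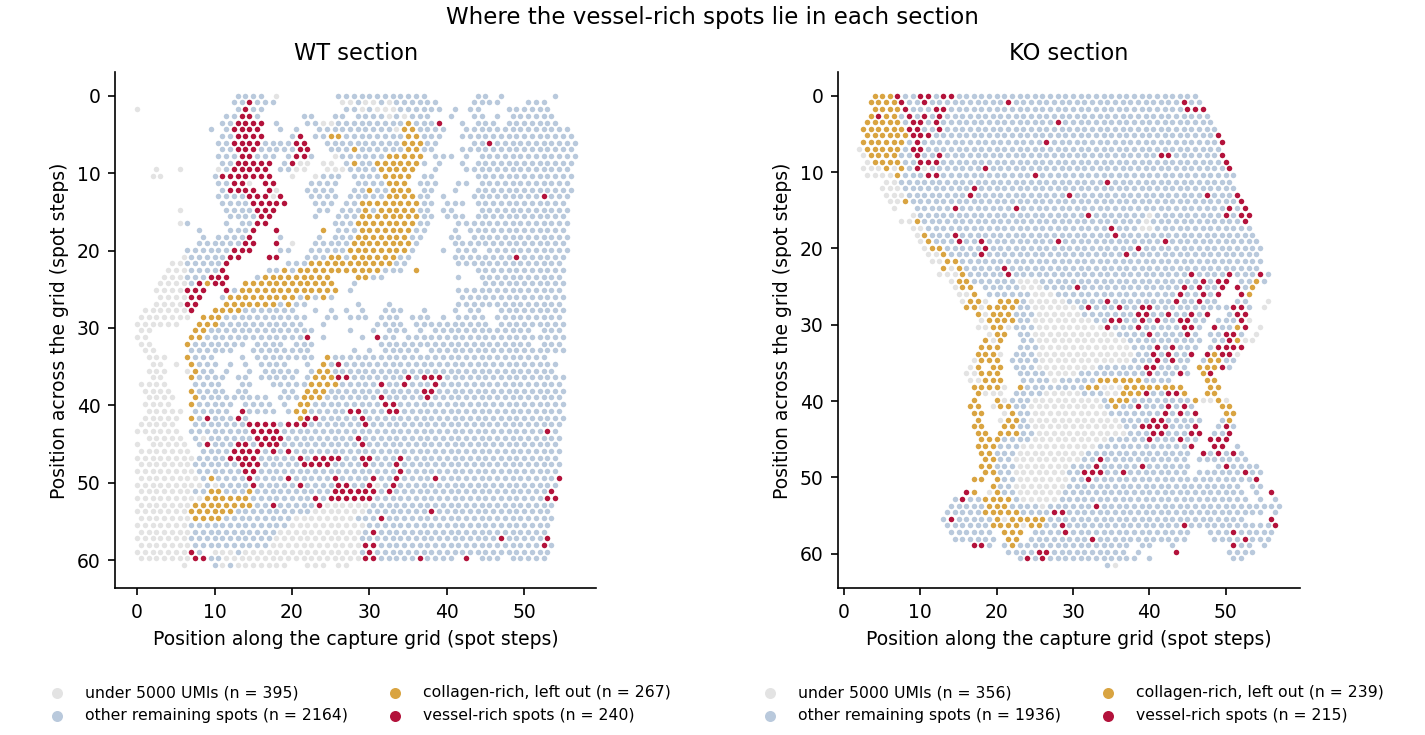
Position of the vessel-rich, other, collagen-rich and low-UMI spots in the WT (left) and KO (right) section, in steps of the capture grid. The WT members form a few broad patches, the largest of 84 spots, and the KO members 93 small patches of at most 21 spots.

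The patches differed in their surroundings. The largest WT patch, 84 spots a median of 2 steps from the edge of tissue or grid, held 15082 CPM of melanocytic genes. It also held 43103 CPM of the 3 collagens and 538 CPM of adipocyte genes. Another WT patch, of 17 spots, lay a median of 11 steps from that edge and held 37840 CPM of melanocytic genes and 5797 CPM of collagen. A WT patch of 8 spots held 27382 CPM of skeletal muscle genes. The largest KO patch, 21 spots, held 49058 CPM of melanocytic genes and 14224 CPM of red blood cell genes. A KO patch of 9 spots, a median of 2 steps from the edge, held 130840 CPM of red blood cell genes. It also held 8788 CPM of MHC class II genes and 3776 CPM of T cell genes.

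Across all genes, ratios of members over other spots were wider in the WT section. A gene is counted as higher or lower when its ratio passed 1.5-fold and it had at least 500 UMIs, which is a size and not a test. The 500 UMIs are summed over members and other spots, so a gene scarce in other spots can be tested through its member UMIs. In the WT section 1309 of 10010 genes were higher (13.1%) and 665 were lower (6.64%). KO spots had 554 of 9783 genes higher (5.66%) and 102 lower (1.04%). In both sections 511 of 9617 genes were higher (5.31%) and 55 were lower (0.572%). Of the higher genes tested in both, 96.8% of those of the KO section were also higher in WT and 52.6% of those of the WT section were also higher in KO tissue. Of the lower genes, 59.1% of the KO set and 8.46% of the WT set were shared. The median log2 ratio over all genes was -0.12 in WT and -0.01 in KO tissue. Counts of list members below are read against these shares.

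**Figure D2:**
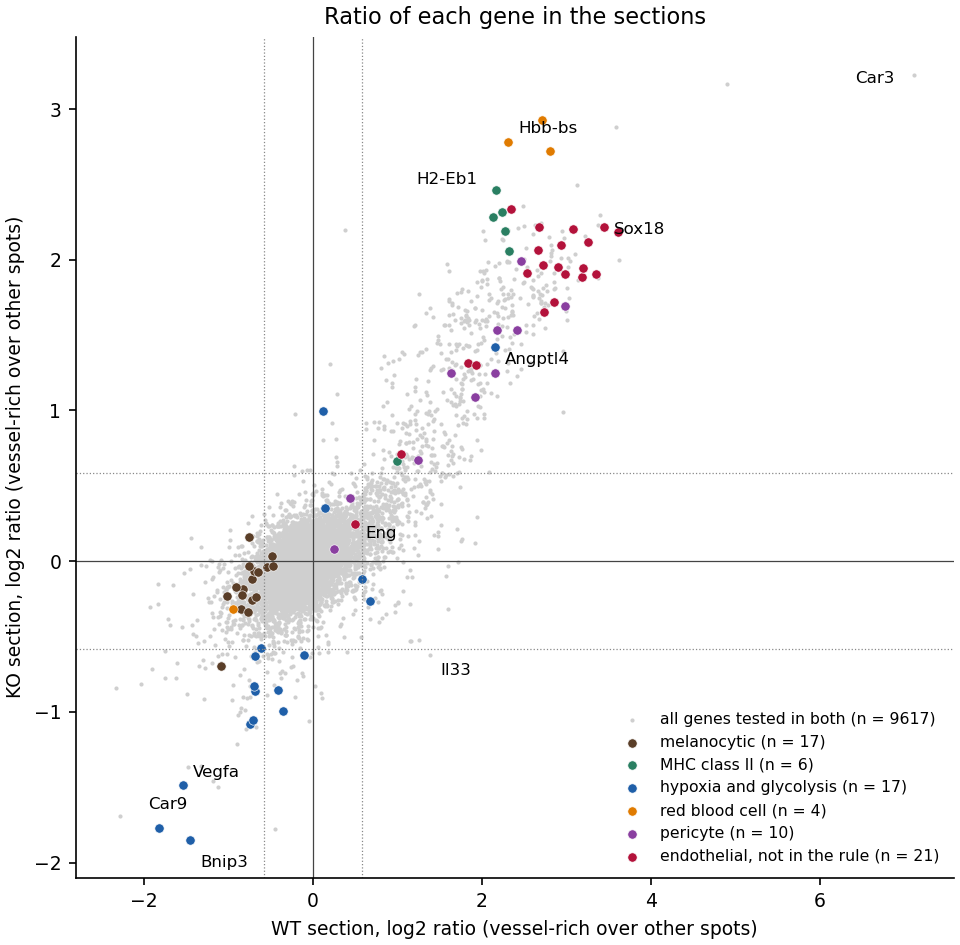
Log2 ratio of each gene in vessel-rich over other spots, WT section on the x axis and KO section on the y axis, for the 9617 genes tested in both; dotted lines mark 1.5-fold. Endothelial genes outside the rule, pericyte genes, MHC class II genes and haemoglobins lie at the upper right, and Car9, Bnip3 and Vegfa at the lower left.

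Endothelial genes that the rule did not use were higher almost throughout. Of 25 tested endothelial genes in the WT section 24 were higher and none lower, and their median log2 ratio was 2.90 (2.22 to 3.68 over quadrants). Of 21 in the KO section 20 were higher and none lower, with a median of 1.94 (1.61 to 2.09). In UMIs that had not chosen the spots the medians were 2.83 and 1.98. Each of 240 and 215 members lay above the median endothelial level of other spots. The transcription factor Sox18 read 94.9 CPM in WT members against 8.72 CPM in other spots, 10.9-fold higher (95% counting interval 9.73 to 12.2). KO members read 23.5 against 5.05 CPM, 4.64-fold (3.92 to 5.49). Rasip1, which keeps the vessel lumen open, was 12.2-fold higher in WT members and 4.54-fold in KO members. Cd93, a C-type lectin of endothelium, read 307.8 against 53.1 CPM in WT and 137.3 against 36.4 CPM in KO tissue. Egfl7, a protein secreted by endothelial cells, was 6.68-fold and 3.15-fold higher. The junction genes Esam (9.14-fold and 3.85-fold) and Cldn5 (9.07-fold and 3.70-fold) and the transcription factor Erg (9.52-fold and 4.34-fold) did likewise. Eng, a TGF-beta co-receptor and the most abundant gene of the list by UMIs, was the exception below 1.5-fold in each section, at 1.41 and 1.19. It read 305.4 and 248.0 CPM in other spots, so its RNA was spread well beyond the members. The sections differed in size and not in direction here, and among melanocytic-rich spots the medians were 2.05 in WT and 1.94 in KO tissue.

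Specialised vessel genes were also higher. All 7 tested capillary genes in WT and 6 of 7 in KO tissue were higher, with medians of 2.14 and 1.73. Fabp4, a fatty acid carrier of capillaries and fat cells, read 370.1 against 35.7 CPM in WT and 297.4 against 63.2 CPM in KO tissue. The water channel Aqp1 was 8.26-fold and 3.98-fold higher. Of 7 arterial genes 5 were higher and 1 lower in the WT section (median 1.79), and 4 of 6 were higher in the KO section (median 0.63). Among these the gap junction gene Gja4 was 7.10-fold higher in the WT section, the ligand Efnb2 6.10-fold and 3.38-fold higher, and Fbln5, an elastic fibre protein, had ratios of 0.666 and 0.775. Fbln5 read 515.5 and 692.8 CPM in other spots. Of 7 venous and adhesion genes 6 were higher in the WT section (median 1.68) and 2 of 4 in the KO section (median 0.48). Vcam1, the leukocyte adhesion receptor, was 4.59-fold and 3.94-fold higher, and Aplnr, the apelin receptor, read 104.5 against 6.13 CPM in the WT section. Lymphatic genes gave little to read, with 4 tested in each section. Their medians were 1.23 and 0.53, and the lymphatic regulator Prox1 had ratios of 0.502 and 0.891. Without the spots richest in muscle and fat, an alternative chosen after seeing the data, the capillary medians were 1.68 in WT and 1.67 in KO tissue. Against spots of like collagen level the WT lymphatic median was -0.19 and the WT capillary median 1.01, and against spots of like melanocytic level they were -0.31 and 0.87. Among melanocytic-rich WT spots the capillary median was 1.88, the arterial 0.64 and the venous and adhesion median 0.27, so the last of these fell under 1.5-fold. The KO medians there were 1.86, 0.54 and 0.38.

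Genes of vessel growth differed within their lists. Tip cell genes were higher, 12 of 13 in the WT section (median 2.00) and 11 of 13 in the KO section (median 1.31). Apln, the apelin ligand of tip cells, read 95.5 against 16.6 CPM in WT and 37.7 against 13.1 CPM in KO tissue. Esm1, a tip cell proteoglycan, was 3.79-fold and 2.49-fold higher, and the angiopoietin Angpt2 3.40-fold and 2.26-fold. The Notch ligand Dll4 was 6.14-fold (5.33 to 7.06) and 3.09-fold (2.63 to 3.63) higher. All 9 tested Notch genes were higher in the WT section (median 2.62) and 6 of 9 in the KO section (median 1.55), among them the endothelial receptor Notch4 at 6.70-fold and 2.93-fold and the feedback gene Nrarp at 7.02-fold and 3.97-fold. Among VEGF and angiopoietin genes, 7 of 11 were higher and 1 lower in the WT section (median 1.61) and 5 of 10 higher and 1 lower in the KO section (median 0.49). The receptors were on the high side: Flt1 read 135.3 against 18.6 CPM and 62.5 against 19.0 CPM, Tie1 was 7.66-fold higher in WT members, and the co-receptor Nrp1 was 3.05-fold and 1.75-fold higher. The co-receptor Nrp2 was not, with ratios of 0.768 and 0.905. The ligands were mixed: Vegfb had ratios of 0.717 and 0.923, Vegfc 1.30 and 1.13, and Pgf too few UMIs to be tested in the WT section. Vegfd, Angpt2 and Angptl4 were among the 7 higher genes of the WT section, so higher levels were not limited to receptors. Vegfa was the lower gene of this list in each section and is described with the low-oxygen genes. Without the spots richest in muscle and fat, the WT median of this list was 0.90. It was 0.30 against spots of like collagen level, 0.38 against spots of like melanocytic level and 1.18 among melanocytic-rich spots. The WT Notch median was 2.29, 2.46 and 2.00 in the same order, and over the 4 Notch genes that reached 500 UMIs in melanocytic-rich spots it was 0.50 there and 1.59 in the full comparison.

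Mural and matrix genes were higher in vessel-rich spots than in the other remaining spots. High levels were not particular to vessel-rich spots. In the collagen-rich spots left out, pericyte genes summed to 1247 CPM in WT and 881 CPM in KO tissue, beside 1079 and 620 CPM in members. Basement membrane genes summed to 10704 and 4478 CPM there, beside 7396 and 3154 CPM in members. Smooth muscle genes summed to 1418 and 672 CPM there, beside 1515 and 399.5 CPM in members. Of the pericyte genes 11 of 13 were higher in the WT section (median 2.15, quadrants 1.35 to 2.04) and 8 of 10 in the KO section (median 1.25, 1.10 to 1.55). Rgs5, a regulator of G protein signalling typical of pericytes, read 132.7 against 24.1 CPM in WT and 72.4 against 18.2 CPM in KO tissue. The pericyte growth factor receptor Pdgfrb was 4.45-fold and 2.37-fold higher, Notch3 7.90-fold and 3.23-fold, and the channel subunits Abcc9 and Kcnj8 5.34-fold and 4.53-fold in WT and 2.90-fold each in KO tissue. The gap junction gene Gjc1 was an exception, at 1.19 and 1.06. Smooth muscle genes were higher in 7 of 8 and 4 of 7 cases (medians 2.31 and 1.11), with the actin Acta2 at 480.5 against 68.4 CPM and 50.7 against 12.3 CPM. Of 15 basement membrane genes 13 were higher in WT and 9 in KO tissue, none lower, with medians of 1.76 and 0.91. Col4a1, a chain of collagen IV, read 962.9 against 133.4 CPM (7.22-fold, 6.99 to 7.45) in WT and 421.3 against 111.8 CPM (3.77-fold, 3.63 to 3.91) in KO tissue. Its partner Col4a2 was 7.09-fold and 4.19-fold higher. Col18a1, the collagen that endostatin is cut from, stood at 7.81-fold in WT and 1.99-fold in KO tissue. Agrin (Agrn) did not pass 1.5-fold, at 0.825 and 1.07. Fibroblast genes outside the rule were higher too, 20 of 20 and 14 of 15, with medians of 2.01 and 1.41. Against other spots of like collagen level the WT fibroblast median was -0.11 while the endothelial median was 2.78 and the ratio of Col4a1 5.36. The KO fibroblast and endothelial medians there were 0.20 and 1.56. Mural and basement membrane medians were smaller in this comparison. The pericyte median was 1.30 in WT and 0.62 in KO tissue, and the smooth muscle median 0.80 and 0.25. The basement membrane median was 1.08 and 0.57.

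Low-oxygen genes showed the reverse. Of 18 tested hypoxia and glycolysis genes in the WT section 9 were lower and 3 higher, and the median log2 ratio was -0.51 (-1.42 to -0.01 over quadrants). Of 17 in the KO section 11 were lower and 2 higher, with a median of -0.83 (-0.73 to -0.68 over quadrants). The background was 6.64% and 1.04% of all genes lower. Car9, a carbonic anhydrase induced by HIF (chr4:43507026-43513729), read 42.4 CPM in WT members against 150.6 CPM in other spots, 3.56-fold lower, and 122.9 against 419.6 CPM in the KO section, 3.41-fold lower. The ratio was 0.281 (0.248 to 0.318) and 0.293 (0.276 to 0.311). By quadrant it ran from 0.0797 to 0.684 in WT and from 0.294 to 0.34 in KO tissue, below 1 in all 6 that could be read. Bnip3, which drives removal of mitochondria (chr7:138890836-138909506), read 26.9 against 73.8 CPM and 55.8 against 200.8 CPM, 2.74-fold and 3.60-fold lower. Vegfa, the growth factor that Flt1 and Kdr bind (chr17:46016993-46032377), read 56.2 against 164.0 CPM and 140.8 against 394.0 CPM. That is 2.92-fold and 2.80-fold lower in the spots where its receptor Flt1 was higher. Ero1l (current symbol Ero1a), an oxidase of protein folding, was 2.18-fold and 2.83-fold lower. The glycolysis gene Pgk1 was 1.61-fold and 1.55-fold lower, and Aldoa, which gave 50.6% and 56.2% of the list's UMIs in members, had ratios of 0.654 and 0.670. Angptl4, a lipase inhibitor that HIF and fatty acids both induce, went the other way at 4.44-fold and 2.68-fold higher, and against spots of like melanocytic level it was 1.21-fold and 1.82-fold. Adm, which is both a low-oxygen gene and a tip cell gene, had ratios of 1.49 and 0.922.

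The low-oxygen genes were lower over the members as a whole and not in a few of them. No WT member and 1 of 215 KO members (0.465%) was among the 10% of remaining spots with the highest hypoxia sum. A level above the median of other spots was found in 18.3% of WT members and 5.58% of KO members. Per spot the sum had a median of 2875 CPM in WT members (659 to 8897) and 4256 CPM in other spots, and of 4743 CPM in KO members (1379 to 15563) and 8517 CPM in other spots, so the ranges overlapped. The list's WT median moved with the choice of spots. Among melanocytic-rich spots it was 0.04 in the WT section (29 members) and -0.63 in the KO section (71 members), so the WT list as a whole was not lower there. Over the 13 and 15 genes that reached 500 UMIs in those spots it was -0.20 and -0.73. The ratios in melanocytic-rich spots were 0.57 and 0.46 for Car9, 0.76 and 0.36 for Bnip3, and 0.60 and 0.43 for Vegfa. Against other spots of like melanocytic level the median was -0.85 in each section, below the full comparison in WT tissue.

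The HIF proteins bind DNA at the core ACGTG, so the promoters of 3 low-oxygen genes are shown, each as the 250 bases before the transcription start from RefSeq (GRCm38.p6), 5′ to 3′ on the gene's strand. Capitals mark ACGTG, or CACGT where it lies on the other strand. The windows are chr4:43506776-43507025 on the plus strand for Car9, chr7:138909507-138909756 on the minus strand for Bnip3 and chrX:106186850-106187099 on the plus strand for Pgk1.
Car9: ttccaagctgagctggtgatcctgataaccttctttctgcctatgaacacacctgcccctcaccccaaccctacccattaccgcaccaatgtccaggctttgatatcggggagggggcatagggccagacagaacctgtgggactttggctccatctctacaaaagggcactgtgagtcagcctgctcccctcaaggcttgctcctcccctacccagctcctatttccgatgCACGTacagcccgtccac
Bnip3: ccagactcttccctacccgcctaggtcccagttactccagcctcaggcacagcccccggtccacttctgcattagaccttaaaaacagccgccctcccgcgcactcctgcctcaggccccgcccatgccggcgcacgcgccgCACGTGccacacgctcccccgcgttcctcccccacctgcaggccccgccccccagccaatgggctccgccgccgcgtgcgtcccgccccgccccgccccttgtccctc
Pgk1: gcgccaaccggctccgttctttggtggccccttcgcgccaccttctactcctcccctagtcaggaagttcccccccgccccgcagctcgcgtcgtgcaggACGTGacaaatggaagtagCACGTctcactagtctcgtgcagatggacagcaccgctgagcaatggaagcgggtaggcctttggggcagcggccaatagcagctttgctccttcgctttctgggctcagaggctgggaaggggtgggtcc
The match of Car9 lies 18 bases before the start, those of Pgk1 150 and 131 bases before it, and the 2 matches of Bnip3 overlap in the palindrome CACGTG, 108 and 107 bases before the start. Of 32851 promoter windows of this length listed, 5444 (16.6%) hold ACGTG on either strand. Among the genes lower in both sections, 18 of 44 with a promoter in the table (40.9%) had a match in at least 1 window, beside 58 of 375 genes higher in both (15.5%) and 2042 of 7732 genes tested in both (26.4%). By section the share was 145 of 522 genes lower in WT tissue (27.8%), close to that of all tested genes, and 32 of 81 genes lower in KO tissue (39.5%). Of the hypoxia and glycolysis list 15 of 18 had a match (83.3%), and of the endothelial list 2 of 19 (10.5%). A match is a run of letters and says nothing of binding in these tumours.

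Red blood cell RNA was higher in vessel-rich spots than in the other remaining spots. The collagen-rich spots left out held 300.2 CPM of these genes in WT and 14154 CPM in KO tissue. Members held 1420 and 8131 CPM. Hbb-bs, an adult beta globin (chr7:103826523-103827928), read 668.8 against 135.2 CPM in the WT section, 4.95-fold higher (4.77 to 5.13). KO members read 4715 against 684.2 CPM, 6.89-fold higher (6.81 to 6.98). Quadrants ran from 2.06 to 4.95 and from 5.04 to 7.13. The other beta globin Hbb-bt was 7.01-fold and 6.60-fold higher, the alpha globin Hba-a2 6.53-fold and 7.59-fold, and Alas2, the haem synthesis enzyme of red cells, 6.63-fold in the KO section, with 95 UMIs in WT members. Of 4 tested red blood cell genes 3 were higher in the WT section (median 2.51), and of 5 in the KO section 4 (median 2.73). The spread over spots was wide: the sum ran from 0 to 36800 CPM in WT members (median 548.6, other spots 334.5) and from 126.5 to 286080 CPM in KO members (median 2527, other spots 559). The 10% of remaining spots highest in these genes included 35.0% of WT members and 40.0% of KO members. Among melanocytic-rich spots the ratio of Hbb-bs was 1.25 in WT and 6.17 in KO tissue.

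**Figure D3:**
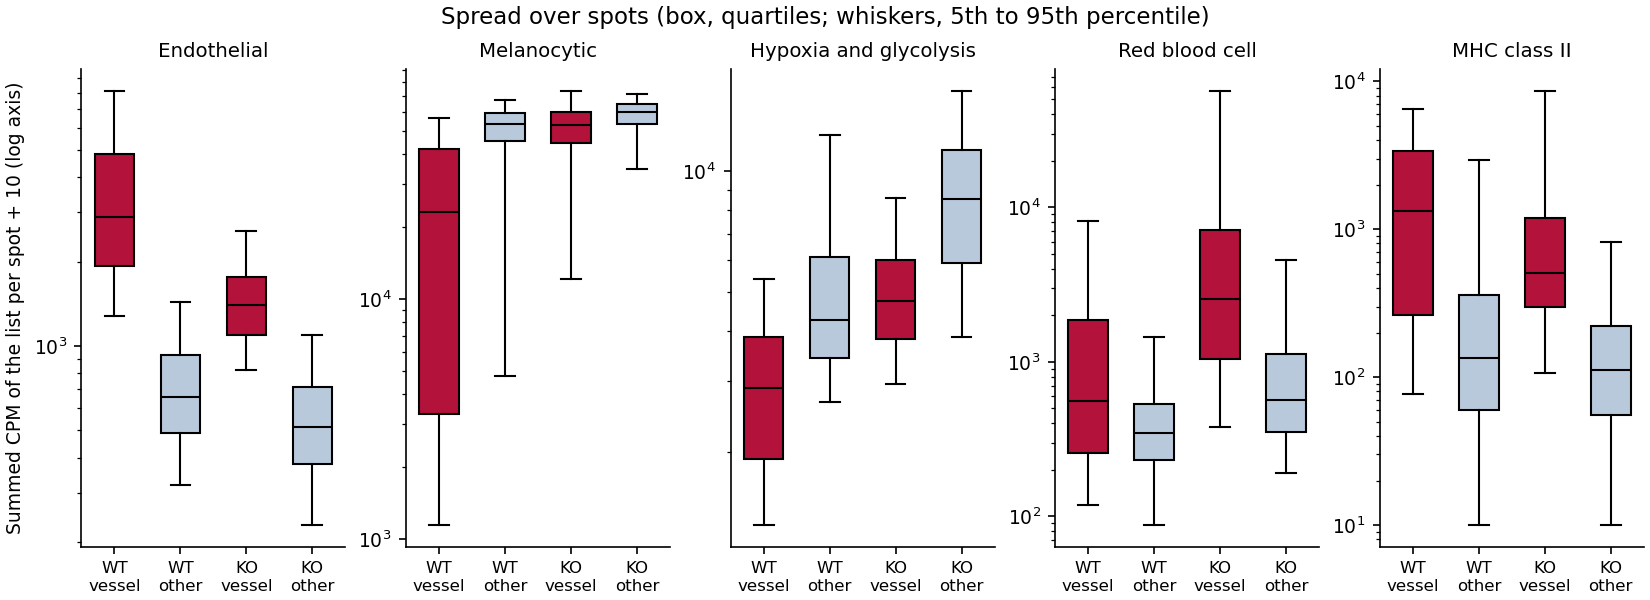
Summed CPM plus 10 per spot (log axis) of 5 gene lists in vessel-rich and other spots of each section; boxes show quartiles, whiskers the 5th to 95th percentile. Endothelial and MHC class II levels are higher and hypoxia levels lower in vessel-rich spots of each section, and melanocytic levels are much lower in those of the WT section alone.

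Immune genes were higher in vessel-rich spots than in the other remaining spots. The collagen-rich spots left out are outside this comparison, and high levels were not particular to vessel-rich spots. Macrophage genes summed to 7518.5 CPM there in WT and 14120 CPM in KO tissue, beside 4765 and 1978 CPM in members. MHC class II genes summed to 903 and 6471.5 CPM there, beside 1587 and 1072 CPM in members. All 6 tested MHC class II genes were higher in each section, with medians of 2.20 (quadrants 1.11 to 1.67) and 2.24 (1.99 to 2.31). Cd74, the invariant chain and 57.0% and 58.9% of the list's UMIs, read 904.7 against 191.8 CPM in WT and 631.2 against 126.6 CPM in KO tissue. The chain H2-Eb1 was 4.47-fold and 5.51-fold higher, and H2-Aa 4.38-fold and 4.87-fold. Of the members 88.3% in WT and 94.0% in KO tissue lay above the MHC class II median of other spots. All 17 tested macrophage genes were higher in WT and 11 of 12 in KO tissue, with medians of 1.83 and 1.43. The complement gene C1qa read 674.2 against 203.8 CPM and 295.0 against 108.7 CPM, and the growth factor receptor Csf1r was 4.96-fold and 3.42-fold higher. These values moved with the choice of spots in the WT section. Against other spots of like melanocytic level the WT macrophage median was -0.06, the ratio of C1qa 0.87 and the MHC class II median 0.35, whereas the KO medians were 0.83 and 1.62. Against spots of like collagen level they were 0.19 and 0.44 in WT and 0.39 and 1.22 in KO tissue. Among melanocytic-rich spots they were 0.84 and 0.37 in WT and 1.21 and 1.72 in KO tissue.

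Interferon gamma genes were higher in each section, and so was the summed T cell list, though only 1 T cell gene could be tested in WT tissue. Of 13 interferon gamma genes 9 were higher in the WT section (median 0.87, quadrants -0.40 to 0.98) and 11 in the KO section (median 1.36, 1.24 to 1.61). Against spots of like collagen and of like melanocytic level the medians were 0.22 and 0.16 in WT and 0.69 and 1.08 in KO tissue. Cxcl9, a chemokine that draws T cells, read 23.2 against 5.75 CPM in the WT section (4.03-fold, 3.32 to 4.88) and 107.7 against 23.6 CPM in the KO section (4.56-fold, 4.22 to 4.92). The GTPase Gbp4 was 5.02-fold and 3.96-fold higher. Cxcl10, a related chemokine, was at 1.09 in WT and 1.75 in KO tissue. Of 11 type I interferon genes 3 and 2 were higher, with medians of -0.00 and 0.15. Of the T cell genes 1, Ccl5, reached 500 UMIs in WT and did not pass 1.5-fold, and 7 reached that depth in KO tissue. All 7 were higher there, with a median of 1.86. The receptor chain Trac read 24.5 against 6.74 CPM in KO members and Trbc2 32.5 against 8.03 CPM. In WT members these had 102 and 123 UMIs and ratios of 5.28 and 4.16. The T cell list summed to 174.1 CPM in WT members against 79.3 CPM in other spots, and to 456.9 against 157.8 CPM in KO tissue. Above the median of other spots lay 71.25% of WT and 87.4% of KO members. At 20 UMIs per gene 19 of 20 T cell genes were higher in WT tissue, beside 25.6% of all genes. In KO tissue it was 20 of 20, beside 15.6%. The collagen-rich spots left out held 150.9 and 1466 CPM of the list. Interferon gamma genes summed to 702 CPM there in WT and 2626 CPM in KO tissue, beside 1446 and 1716 CPM in members. MHC class I genes summed to 4872 and 11128 CPM there, beside 5684 and 4090 CPM in members. Ccl5, made by T cells and other cells, was at 1.15 and 2.48. MHC class I genes were higher in 9 of 10 cases in each section, with medians of 0.99 and 1.11; the proteasome subunit Psmb8 was 4.04-fold and 3.81-fold higher and B2m at 1.42 and 1.47. Against spots of like collagen and of like melanocytic level the MHC class I medians were 0.30 and 0.26 in WT and 0.59 and 0.87 in KO tissue. Antibody genes were high in WT members, with Ighm at 120.8 against 4.85 CPM and Igkc at 273.3 against 26.1 CPM, and KO members had 28 and 22 UMIs of them. Among melanocytic-rich spots the WT ratio of Igkc was 0.41.

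**Figure D4:**
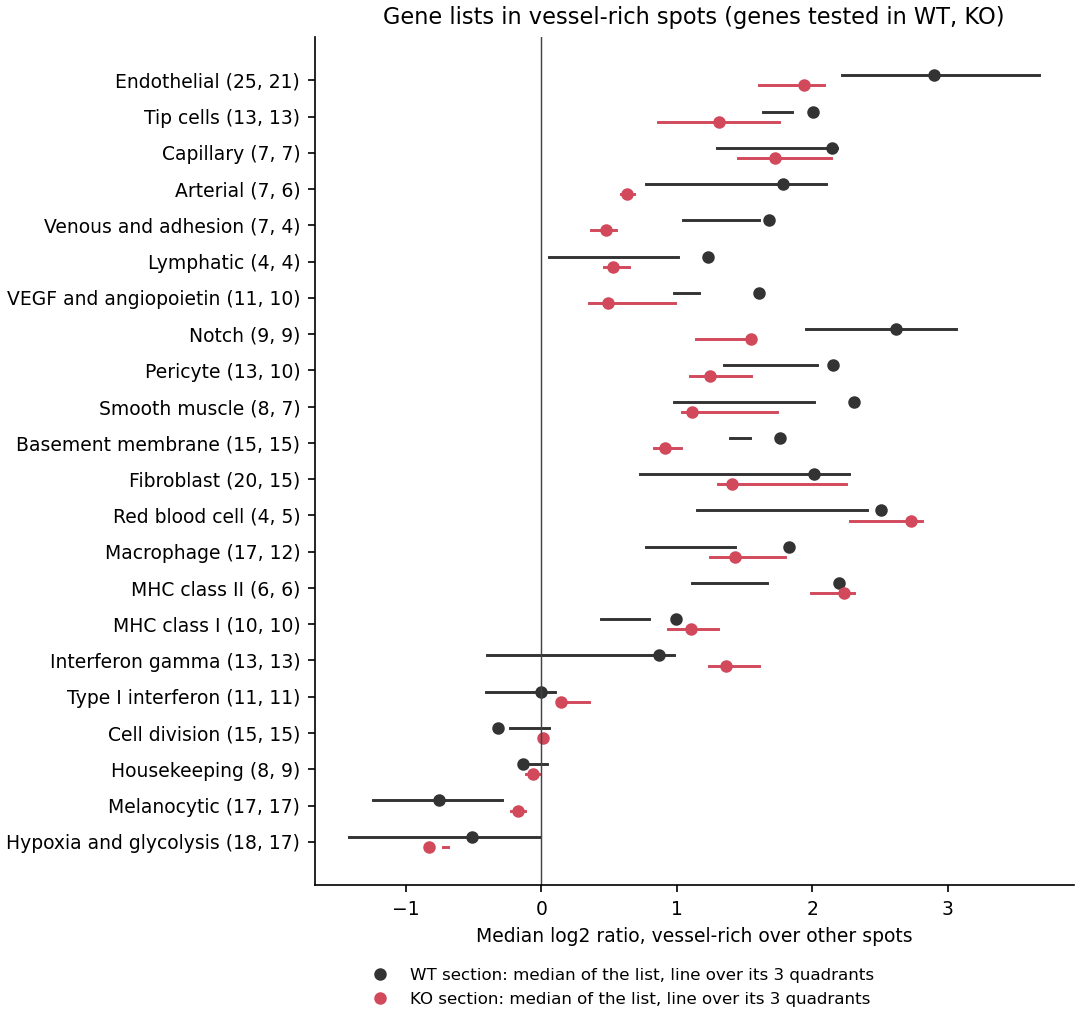
Median log2 ratio of each gene list in vessel-rich over other spots (dots) in the WT and KO section; the line spans the medians of the 3 quadrants with at least 20 members, and the dot, taken over the whole section, can lie off it. Vessel, pericyte, red blood cell and MHC class II lists lie above 0 in each section, and the hypoxia and melanocytic lists below 0.

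Tumour cell genes were lower in WT members and near level in KO members. Of 17 tested melanocytic genes 14 were lower in the WT section (median -0.76) and 1 in the KO section (median -0.17). Dct, an enzyme of melanin synthesis, had ratios of 0.561 and 0.881, and Tyrp1 0.604 and 0.920. S100b, a calcium-binding protein of melanocytes, was 2.12-fold and 1.62-fold lower, while Mlana had ratios of 0.592 and 1.12. Cell division genes had 1 of 15 lower in the WT section (median -0.32) and none past 1.5-fold in the KO section (median 0.01). Mki67 had ratios of 0.782 and 1.04. Housekeeping genes had medians of -0.13 and -0.06, with 1 of 8 and 2 of 9 lower.

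The highest ratios belonged to genes of fat and muscle. Car3, a carbonic anhydrase of fat and muscle, read 306.8 CPM in WT members against 2.21 CPM in other spots, 139-fold higher, with quadrants from 2.67 to 76.4. The adipocyte protease Cfd was 106-fold higher in WT members and the muscle actin Acta1 29.8-fold. Among KO members Car3 was 9.36-fold higher, Acta1 8.98-fold and the myosin Myh4 7.21-fold. The 10% of remaining spots highest in adipocyte genes included 46.3% of WT members and 20.5% of KO members, and the 10% highest in muscle genes 5.83% and 16.3%, so WT members were fewer there than the 10.0% of remaining spots. Only 23.3% of WT members lay above the muscle median of other spots, while the list ran from 0 to 48714 CPM per WT member, with a median of 59.6 CPM. Without the spots richest in muscle and fat, an alternative chosen after seeing the data, Car3 was at 6.27-fold and 1.72-fold, Acta1 at 0.90-fold in WT and 2.39-fold in KO tissue, and Myh4 at 1.84-fold. The endothelial medians were then 2.71 and 1.93 and the hypoxia medians -0.48 and -0.86. Without the WT quadrant of 107 members the log2 ratio was -1.07 for Cfd and -1.58 for Acta1. With the top 20% of spots by collagen left out, the KO ratios were 0.83 for Car3, 0.49 for Acta1 and 0.48 for Myh4. Cxcl14, a chemokine of stroma and skin, read 77.2 against 6.43 CPM in WT and 43.4 against 5.89 CPM in KO members. At the other end were Serpinb2, a protease inhibitor, 8.11-fold lower in the WT section with a ratio of 0.984 in the KO section, and Selenbp1, 3.42-fold lower in the KO section with a ratio of 0.731 in the WT section. Among melanocytic-rich WT spots the log2 ratio of Serpinb2 was 0.79 and that of Car3 -0.45.

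Levels followed the distance from the nearest vessel-rich spot. In the KO section Car9 read 122.9 CPM in members, 254.7 CPM at 1 step, 406.3 CPM at 2, 452.0 CPM at 3 and 615.4 CPM at 4 or more steps. In the WT section it read 42.4, 90.7, 132.8, 175.5 and 170.3 CPM. Car9 was thus higher at each further step in the KO section, and the last 2 WT values were close. Vegfa read 56.2, 97.7, 139.8, 166.4 and 195.1 CPM in WT and 140.8, 254.5, 392.0, 430.4 and 542.4 CPM in KO tissue. Bnip3 read 26.9, 40.9, 63.2, 80.3 and 87.1 CPM and 55.8, 122.3, 204.9, 227.0 and 273.6 CPM. These genes were lowest in the members and highest at 4 or more steps, apart from Car9 in the WT section. The bins held 240, 344, 368, 296 and 1156 WT spots and 215, 536, 479, 388 and 533 KO spots.

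Other genes were lower with distance over the same steps, apart from slight WT upturns of Cd74 at 4 or more steps and of Hbb-bs at 3. Cxcl9 read 23.2, 11.2, 7.9, 5.0 and 3.3 CPM in WT and 107.7, 41.8, 23.0, 14.3 and 9.1 CPM in KO tissue. Cd74 read 904.7, 324.5, 195.5, 149.8 and 157.4 CPM and 631.2, 245.4, 102.2, 67.3 and 52.0 CPM. Hbb-bs differed widely between the members and the adjoining spots, from 668.8 to 193.4 CPM in WT and from 4715 to 1168 CPM in KO tissue. The summed endothelial level went from 2959 to 963 CPM and from 1414 to 714.5 CPM over that step, so adjoining spots still held more than the 641 and 471 CPM found at 4 or more steps. Melanocytic levels differed over the same bins in the WT section, from 31315 CPM in members to 48114, 51580, 53302 and 53597 CPM, and less in the KO section, from 52810 to 57878, 59926, 59551 and 56714 CPM. Median depth differed too, from 23038 UMIs in WT members to 37627 at 1 step and 29298 at 4 or more steps, and from 42666 to 46740 and 37145 in the KO section. Collagen differed as well. The 3 collagen genes summed to 23769, 7257, 4196, 3183 and 4972.5 CPM over the WT bins. In the KO section they summed to 1446, 581, 367, 402 and 766 CPM. The part of tumour content, collagen-rich stroma and depth in these gradients was not tested.

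**Figure D5:**
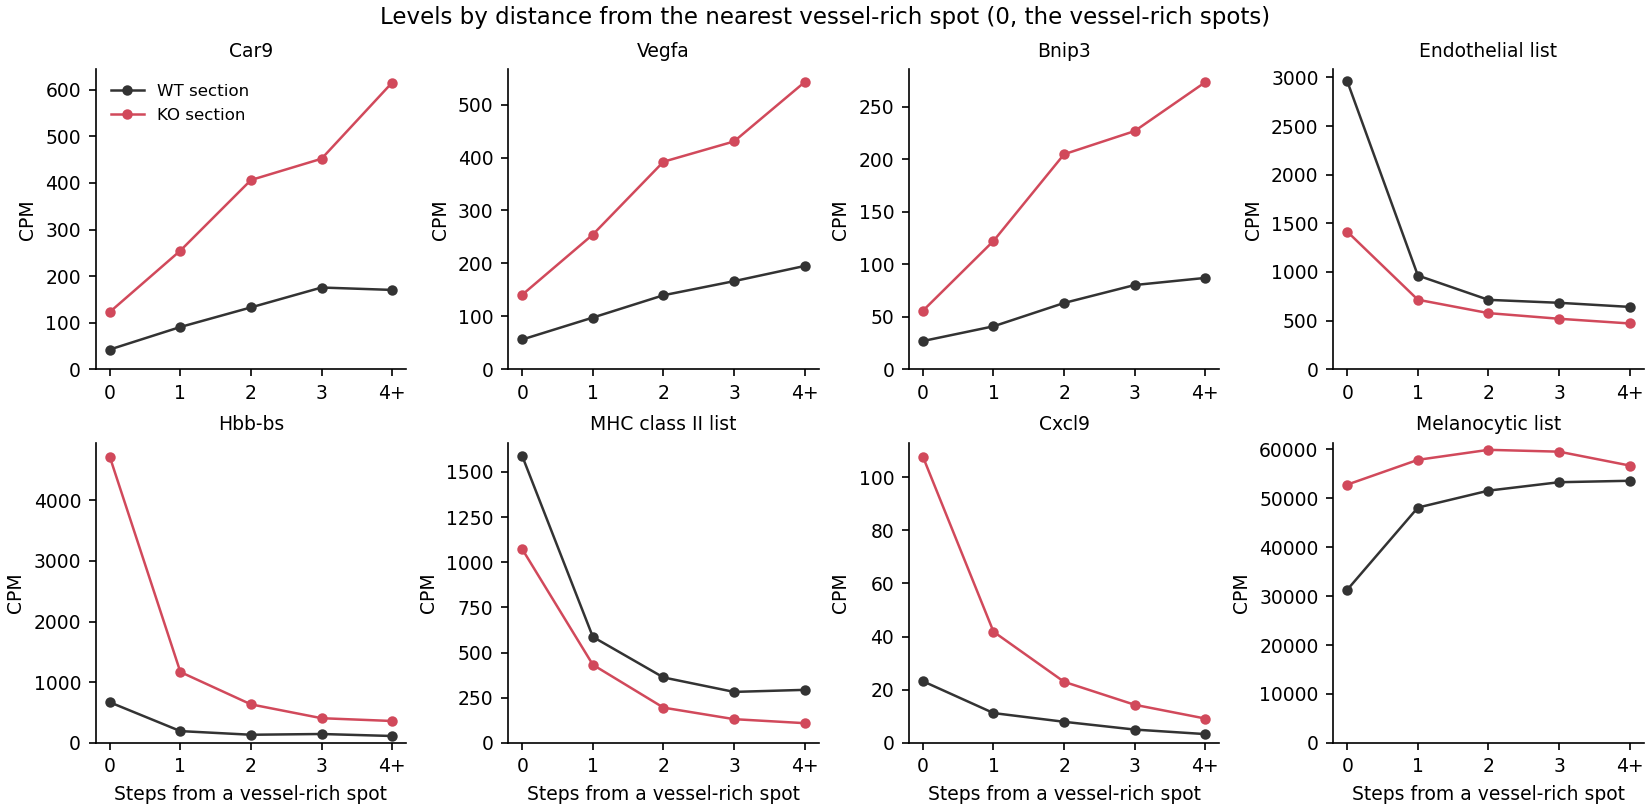
Level (CPM) of 5 genes and 3 gene lists by distance in grid steps from the nearest vessel-rich spot, WT and KO section, where 0 is the vessel-rich spots themselves. Car9, Vegfa and Bnip3 are lowest at 0, and the endothelial and MHC class II lists, Hbb-bs and Cxcl9 are highest there.

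Set side by side, the sections differed in the level of several genes within vessel-rich spots, with no replicate of either. KO members held 122.9 CPM of Car9 and WT members 42.4 CPM, and the other spots differed in the same direction (419.6 and 150.6 CPM), so the ratios of 0.293 and 0.281 were close. Cxcl9 likewise read 107.7 CPM in KO and 23.2 CPM in WT members, with ratios of 4.56 and 4.03. Hbb-bs read 4715 and 668.8 CPM. Vessel genes went the other way, for example Cd93 at 137.3 CPM in KO and 307.8 CPM in WT members and Col4a1 at 421.3 and 962.9 CPM. The members of the sections lie above different thresholds of the choosing genes and hold different amounts of stroma, so these levels are not of like spots.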

How the data were processed

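For each section a table of UMI counts, genes by spots, was deposited; per the file headers Space Ranger 2.1.0 made it. The submitters' processing notes also name featureCounts and mm10, with no role for each. The deposited spatial table holds Moran's I, a score of how clumped each gene is, and it was not used for any result here. Steps were counted on the deposited grid of 4992 positions.

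UMIs of each gene were summed over the member spots and over the other remaining spots of a section and scaled to CPM. Ratios have 95% intervals from the exact Clopper-Pearson method, conditional on the summed count, which cover counting error only. Genes with at least 500 UMIs over members and other spots together were counted, and a ratio past 1.5-fold is called higher or lower. Spots are not replicates and each genotype is 1 section, so no test was run. Quadrants, 4 per section, meet at the median row and column of spots, and those with at least 20 members are read. The steps were checked on simulated counts. Members, gene lists and alternatives were chosen with earlier results of these data known.

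Named genes are, outside predicted genes and some left-out symbols, the 12 highest and 8 lowest ratios in each section, the 3 most abundant and the extreme members of each list, and any tested endothelial, tip cell, VEGF, pericyte or basement membrane gene. A spot is melanocytic-rich when melanocytic genes give at least the section's median share of its UMIs. Comparisons with spots of like collagen or melanocytic level weight the other spots to the members' spread over 10 classes, and the melanocytic weighting was chosen after seeing the data. Gene positions and promoters come from RefSeq, GRCm38.p6, the assembly that mm10 denotes, and 119 of 119 genes matched. Python 3.11.15, numpy 2.4.6, pandas 2.3.3, scipy 1.17.1, matplotlib 3.10.9 and R 4.3.3 were used, with edgeR 4.0.16 for TMM factors alone.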

Additional observations from a re-analysis of the deposited data

Results flagged for a closer look

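Il33, an alarmin cytokine that stromal and endothelial cells can hold, stood above 1.5-fold in vessel-rich spots of the WT section and below it in those of the KO section. The ratio of members over other spots was 2.61 (2.34 to 2.90, counting error) in the WT section, from 66.7 against 25.5 CPM. In the KO section it was 0.651 (0.486 to 0.856), from 55 UMIs in the members. The quadrants ran from 0.854 to 3.901 in the WT section and from 0.574 to 3.34 in the KO section, so each section held quadrants on either side of 1. Against other spots matched on collagen the WT ratio was 0.636, and matched on melanocytic transcripts 0.616. Among melanocytic-rich spots the KO ratio was 2.53 and the WT ratio 2.75, so the opposite calls did not hold under these settings. The difference between the sections was not tested, and Il33 was picked after its values were seen.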

How the results depend on the processing

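No paired analysis was possible because each genotype has 1 section. Spots of a section are not replicates, and WT members are shallow and rich in stroma. The alternatives without muscle-rich and fat-rich spots and with other spots matched on melanocytic transcripts were chosen after seeing the data, as were melanocytic-rich medians over the genes of the full comparison. The WT count of higher genes (1309) was 825 with the top 20% as members, 835 with the top 20% by collagen left out, 445 matched on collagen, 849 in interior spots, 426 in melanocytic-rich spots, 413 matched on melanocytic transcripts and 3922 at 20 UMIs per gene. The WT count of lower genes (665) was 1059 with equal weight per spot, 1205 thinned to 5000 UMIs, 2432 and 108 with the top 5% and 20% as members, 180 with more collagen left out, 230 matched on collagen, 299 matched on quadrant, 420 in interior spots, 348 in melanocytic-rich spots, 396 without muscle and fat, 281 matched on melanocytic transcripts and 1512 at 20 UMIs. The KO count of higher genes (554) was 351 with more collagen left out, 335 matched on collagen, 369 in interior spots, 213 in melanocytic-rich spots, and 1023 and 2873 at 200 and 20 UMIs. The KO count of lower genes (102) was 400 thinned, 178 with the top 5% and 1773 at 20 UMIs. The WT endothelial median (2.90) was 3.32 with equal weight, 3.33 thinned, 3.41 and 2.49 with the top 5% and 20%, 2.62 with more collagen left out, 2.68 in interior spots, 1.97 in melanocytic-rich spots and 2.05 there over the genes of the full comparison. The KO endothelial median (1.94) was 1.61 thinned, 2.16 with the top 5% and 1.56 matched on collagen. Leaving out each quadrant in turn gave 863 to 1250 higher and 315 to 1055 lower genes and an endothelial median of 2.64 to 2.92 in the WT section, and 379 to 534, 76 to 115 and 1.81 to 2.04 in the KO section.

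The share of calls that were higher was 66.3% in WT and 84.5% in KO tissue. In the WT section it was 55.2% with equal weight, 52.1% thinned, 41.3% and 88.4% with the top 5% and 20%, 82.3% with more collagen left out, 55.0% in melanocytic-rich spots and 53.9% without quadrant 3. In the KO section it was 61.6% thinned, 72.7% in melanocytic-rich spots and 61.8% at 20 UMIs. TMM factors moved the median of all genes by -0.05 and -0.01.

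Some log2 values changed sign, and the cause was not tested. In the WT section, matched on collagen, these were the lymphatic (-0.19), fibroblast (-0.11) and cell division (0.070) lists, Fbln5 (0.0535), Fn1 (-0.40) and Il33 (-0.65). Matched on melanocytic transcripts they were the lymphatic (-0.31), fibroblast (-0.23), cell division (0.10) and macrophage (-0.0624) lists, Cd34 (-0.0119), Fbln5 (0.16), C1qa (-0.20), Fn1 (-0.67) and Il33 (-0.70). In melanocytic-rich WT spots they were Igkc (-1.28), Car3 (-0.45) and Serpinb2 (0.79), and over the genes of the full comparison the hypoxia (0.0398) and skeletal muscle (-0.44) lists. With a WT quadrant left out, Acta1 ran from -1.58 to 5.37 and Cfd from -1.07 to 7.32, each lowest without quadrant 1, and Acta1 at -1.001 in interior spots and -0.15 without muscle and fat. The WT housekeeping median was 0.0179 thinned. In the KO section, with more collagen left out, they were the skeletal muscle list (-0.33), Car3 (-0.26), Acta1 (-1.04) and Myh4 (-1.05). Matched on collagen they were the melanocytic list (0.0287), Sparc (-0.21) and Fn1 (-0.0830). The KO melanocytic median was 0.0307 in melanocytic-rich spots and 0.00321 matched on melanocytic transcripts, Il33 was at 1.34 in melanocytic-rich spots, and the lymphatic median was -0.00166 in interior spots. Of the lists with a median log2 ratio of at least 0.10 in either direction, 16 of 23 in WT and 19 of 22 in KO tissue kept their direction under all alternatives run.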
